A study of Mus musculus with 12 samples.

Results

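The genes described here drive cells through the division cycle and copy their DNA. They are 52 named genes, of which 26 act around the G1/S transition (D and E cyclins, their kinases, E2F factors, replication origin proteins and enzymes of nucleotide supply) and 26 act in G2 and mitosis (G2/M: A and B cyclins, Cdk1, mitotic kinases, the spindle checkpoint and spindle proteins). They were chosen by name and not by a measured value from a table of 34866 genes, though with earlier results of these data known. Each had 1 identifier in the table, and all 52 reached a mean of at least 1 TPM (transcript abundance scaled by length, with the same total in each library), as did 12504 genes in all.

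Polyadenylated RNA was sequenced from mouse embryonic fibroblasts (MEFs), connective tissue cells grown from embryos, in 4 groups of 3 libraries, the WT and KO cells of males and of females. WT cells came from 129S1/SvImJ mice and KO cells from mice labelled as lacking Sirt3, the main mitochondrial deacetylase. Cells of all 4 groups were isolated from single embryos aged 13 days, immortalized with an SV40 T-antigen plasmid, seeded at passage 6 in triplicate wells and collected after 48 h, so that n = 3 counts wells. The comparisons ask what the Sirt3 KO changes in each sex and whether the change differs between the sexes. SV40 large T antigen is known to bind the Rb family and p53, the brakes of the cycle, and the KO and WT groups share it. The p-values measure the spread between these wells, which may be technical. The number of lines per group is not given in the sources used here, and with 1 line a group, line, genotype and sex cannot be told apart.

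Sirt3 itself was not lower in the libraries labelled KO. It stood at 6.59 to 9.07 TPM in the labelled male WT, 8.88 to 11.0 in the labelled male KO, 7.40 to 8.69 in the labelled female WT and 7.57 to 9.06 in the labelled female KO libraries, and TPM summed over a gene cannot tell an intact transcript from one with a deletion. KO and WT, and any direction drawn from them, therefore refer to how the libraries are labelled. Ddx3y, on the Y chromosome, stood at 31.7 to 36.6 TPM in the labelled male and at most 0.218 in the labelled female libraries. Of 12 fibroblast markers 11 reached a mean of 1 TPM, and their summed level was higher in KO in both sexes (10374 to 11491 TPM in male WT, 12926 to 13668 in male KO, 8338 to 8484 in female WT and 11051 to 11332 in female KO). Not all moved with the sum: of the 11, 9 had a positive and 2 a negative change in males. S100a4 was lower there (1058 to 1165 TPM in male WT and 953 to 967 in male KO). In females all 11 had a positive change. Epithelial markers moved with genotype too: 3 of 6 reached a mean of 1 TPM, and the list summed to 76.1 to 77.8 TPM in male WT, 7.90 to 8.78 in male KO, 19.8 to 22.9 in female WT and 7.40 to 10.3 in female KO, while Cdh1, Krt8 and Cldn4 stayed under 1 TPM in each library. Neural markers (4 of 5 at a mean of 1 TPM) summed to 92.2 to 96.8, 54.4 to 66.4, 99.3 to 109.2 and 65.6 to 84.4 TPM in the same order. That sum was mostly Map2 (38.9 to 88.7 TPM), and other members went otherwise: Sox2 stood at 12 to 16.2, 0.265 to 1.72, 2.05 to 2.45 and 6.12 to 6.41 TPM, and Tubb3 at 9.89 to 10.5, 12.1 to 13.9, 15.7 to 17.9 and 13.0 to 15.7 TPM. Of the endothelial and blood cell markers, 1 of 5 and 1 of 6 reached a mean of 1 TPM (sums of 1.40 to 5.95 and 4.18 to 11.4 TPM over the 12 libraries), with Pecam1, Cdh5 and Ptprc under 1 TPM and Adgre1 at 0 in each library. The part of these marker differences in the results below was not tested.

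In the textbook cycle, growth signals raise the D cyclins, which with Cdk4 and Cdk6 phosphorylate the Rb proteins and free E2F factors. E2F then switches on the E cyclins, the replication origin and helicase proteins and the enzymes that make DNA precursors. Later, B-Myb and FoxM1 with the MuvB complex switch on the mitotic genes, whose products build the spindle and are largely destroyed as mitosis ends. In bulk RNA, fewer cells in a phase and less of a transcript per cell cannot be told apart.

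Promoters of both classes were searched for short motifs of these factors, and 5 stretches are shown because they hold the letters searched for. A RefSeq promoter window of 300 bases (250 before and 50 after the start, GRCm38.p6) was found for 41 of the 52 genes, and the windows were searched on both strands for the CCAAT box (CCAAT), the cell cycle genes homology region or CHR (TTTGAA or TTTAAA) and an E2F site (TTNNCGC). Each sequence below ends at the last base before the RefSeq start and reads 5′ to 3′ on the strand of the gene, with any base of a match in capitals. Reverse matches read ATTGG for the CCAAT box, TTCAAA or again TTTAAA for the CHR and GCGNNAA for the E2F site, and the letters of an E2F match can run into those of a CCAAT box or of another E2F match. The mitotic kinase Plk1 (chr7:122159325-122159434, plus strand), the anaphase activator Cdc20 (chr4:118437344-118437453, minus strand) and the Cdk1 partner Cks2 (chr13:51645122-51645231, plus strand) stand for G2/M, and the replicative helicase subunit Mcm5 (chr8:75109329-75109508, plus strand) and the phosphatase Cdc25a (chr9:109875469-109875578, plus strand) stand for G1/S.
Plk1: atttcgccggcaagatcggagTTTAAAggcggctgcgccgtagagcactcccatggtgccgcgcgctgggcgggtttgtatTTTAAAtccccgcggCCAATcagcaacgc
Cdc20: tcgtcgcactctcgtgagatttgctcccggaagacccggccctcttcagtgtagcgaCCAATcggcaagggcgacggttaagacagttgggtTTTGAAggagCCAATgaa
Cks2: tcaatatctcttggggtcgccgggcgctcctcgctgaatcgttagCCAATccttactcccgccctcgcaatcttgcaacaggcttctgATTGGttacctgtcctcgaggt
Mcm5: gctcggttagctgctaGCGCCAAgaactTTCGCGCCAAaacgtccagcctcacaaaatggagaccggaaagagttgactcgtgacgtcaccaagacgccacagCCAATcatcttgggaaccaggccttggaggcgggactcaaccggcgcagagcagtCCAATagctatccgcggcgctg
Cdc25a: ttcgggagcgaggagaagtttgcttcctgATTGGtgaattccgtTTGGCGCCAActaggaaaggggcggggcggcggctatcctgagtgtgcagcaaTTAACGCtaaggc

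In the Plk1 stretch a CHR lies 29 bases and a CCAAT box 14 bases before the start, and a further CHR lies 89 bases before it. Cdc20 has a CHR 18 bases before its start between CCAAT boxes at 53 and 8 bases, and Cks2 has CCAAT boxes at 65 and 22 bases with no CHR in its window. Mcm5 has E2F matches at 164, 152 and 149 bases and CCAAT boxes at 77 and 22 bases, and Cdc25a has E2F matches at 66, 63 and 13 bases and a CCAAT box at 81 bases. A CHR match was also found for Mcm5, outside the stretch printed here. Over the 20 G2/M genes with a window, 18 held a CCAAT box (90.0%), 16 a CHR (80.0%) and 6 an E2F match (30.0%). Over the 21 G1/S genes with a window these numbers were 12 (57.1%), 6 (28.6%) and 16 (76.2%). Of all 27025 genes with a window, 41.1% held a CCAAT box, 30.6% a CHR and 22.6% an E2F match, and 13.4% held both a CCAAT box and a CHR, as did 15 of the 20 G2/M genes (75.0%). A match is a description of letters and not a proven site. No window was found for Gmnn, Ccnd1, Mcm4, Tpx2, Ccna2, Kif20a, Ccnd2, Aurkb, Cdc25c, Foxm1 and Ccne2.

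The cycle genes were well expressed in these MEFs. Their mean over the 12 libraries ran from 811.2 TPM for Cdk4, the kinase partner of the D cyclins, to 2.11 TPM for E2f2, and 51 of the 52 genes stood above 20 TPM. After Cdk4 came Cdk1 (434.7 TPM), the kinase of mitosis, Ube2c (402.6 TPM), which feeds ubiquitin to the anaphase promoting complex, Top2a (257.3 TPM), which untangles DNA, and Cks2 (238.2 TPM). The 6 subunits of the Mcm helicase, which work as 1 ring, stayed within 1.52-fold to 1.86-fold of each other in any library. Among D cyclins Ccnd3 led with a mean of 123.6 TPM, followed by Ccnd1 (59.5 TPM) and Ccnd2 (53.5 TPM), whose ranges over the libraries overlapped. Pcna (233.5 TPM) has a processed copy in the annotation, Pcna-ps2, which stood at 38.7 to 48.5 TPM, so its level depends on how reads were shared between them. Copies of Ccnb1, Ccnb2, Ccnd3 and Tyms stood at no more than 1.19 TPM.

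**Figure D1:**
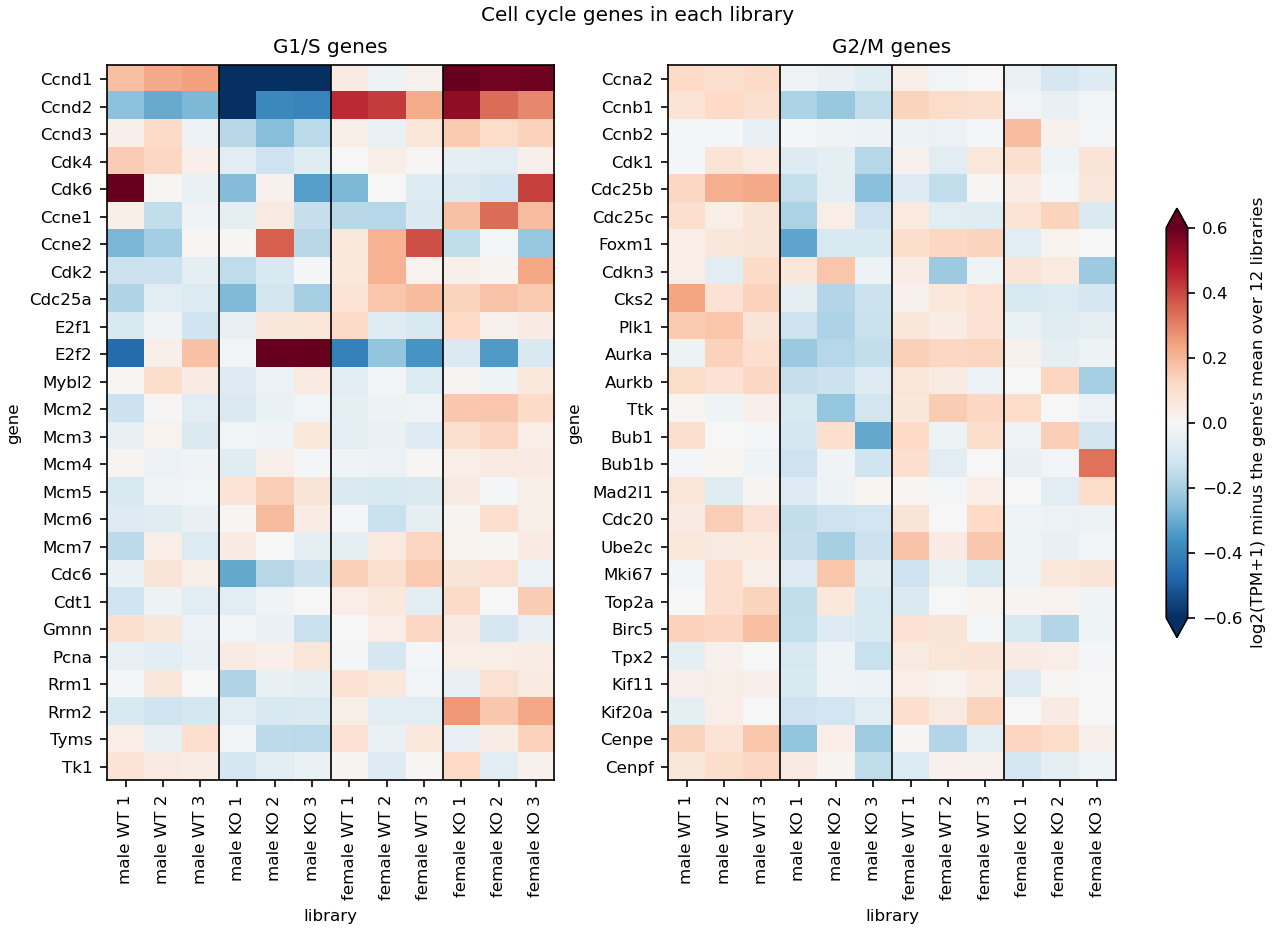
Each cell is 1 gene in 1 library, as log2(TPM+1) minus the mean of that gene over the 12 libraries, with G1/S genes left, G2/M genes right and black lines between groups. Ccnd1 is lowest in the 3 male KO and highest in the 3 female KO libraries, and most G2/M genes are blue in male KO; the colour scale ends at 0.6 and darker values lie beyond it.

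In male MEFs, G2/M transcripts were lower in KO, and so was cyclin D1. Of the 26 G2/M genes 10 fell and none rose (38.5% called, with 14 lower and 0 higher at an unadjusted p under 0.05), and of the 26 G1/S genes 4 fell and 1 rose (19.2% called), by limma on log2(TPM+1) at an adjusted p under 0.05 with Benjamini-Hochberg adjustment over all 12504 genes. Over all genes tested 21.6% were called, 10.7% higher and 10.9% lower. The share of all genes tested at an unadjusted p under 0.05 was not computed, so such counts stand without it here and below. The median log2 fold change was -0.15 over the G2/M genes, -0.0015 over the G1/S genes and -0.015 over all genes tested, and 25 of the 26 G2/M genes had a negative value (24 under median-of-ratios or quantile scaling, where Ccnb2 turned positive). In 18 of the 26 G2/M genes (69.2%) and 7 of the 26 G1/S genes (26.9%) each KO library lay below each WT library, which was so for 21.2% of all genes tested. The single changes were small: aside from Ccnd1 the called genes differed by 0.13 to 0.34 on the log2 scale. With any 1 library left out the G1/S count was 1 to 3 and the G2/M count 8 to 12, and with no mean-variance trend the G1/S count was 1.

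In female MEFs the calls were higher for G1/S and lower for G2/M genes, and a difference between the classes was not tested. Of the 26 G1/S genes 5 rose and none fell (19.2% called), and of the 26 G2/M genes 4 fell and none rose (15.4% called), against 11.5% of all genes tested, 5.63% higher and 5.84% lower. The median log2 fold change was 0.075 over the G1/S genes, -0.057 over the G2/M genes and -0.023 over all genes tested. Of the G1/S genes 19 had a positive and 7 a negative value, and of the G2/M genes 10 and 16. In 10 of the 26 G1/S genes (38.5%) each KO library lay above each WT library, against 14.9% of all genes tested, and in 12 of the 26 G2/M genes (46.2%) each lay below, against 18.7%. The reverse held for 2 genes of each class (7.69%), Mki67 and Cenpe among the G2/M genes. With 1 library left out in turn, limma called 1 G2/M gene (without female WT 1 or 2) or 0 (without female WT 3 or any 1 female KO library), and with no mean-variance trend it called 0, with 6 lower and 1 higher at an unadjusted p under 0.05. The G1/S count was then 3 or 4, and 3 with no mean-variance trend.

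**Figure D2:**
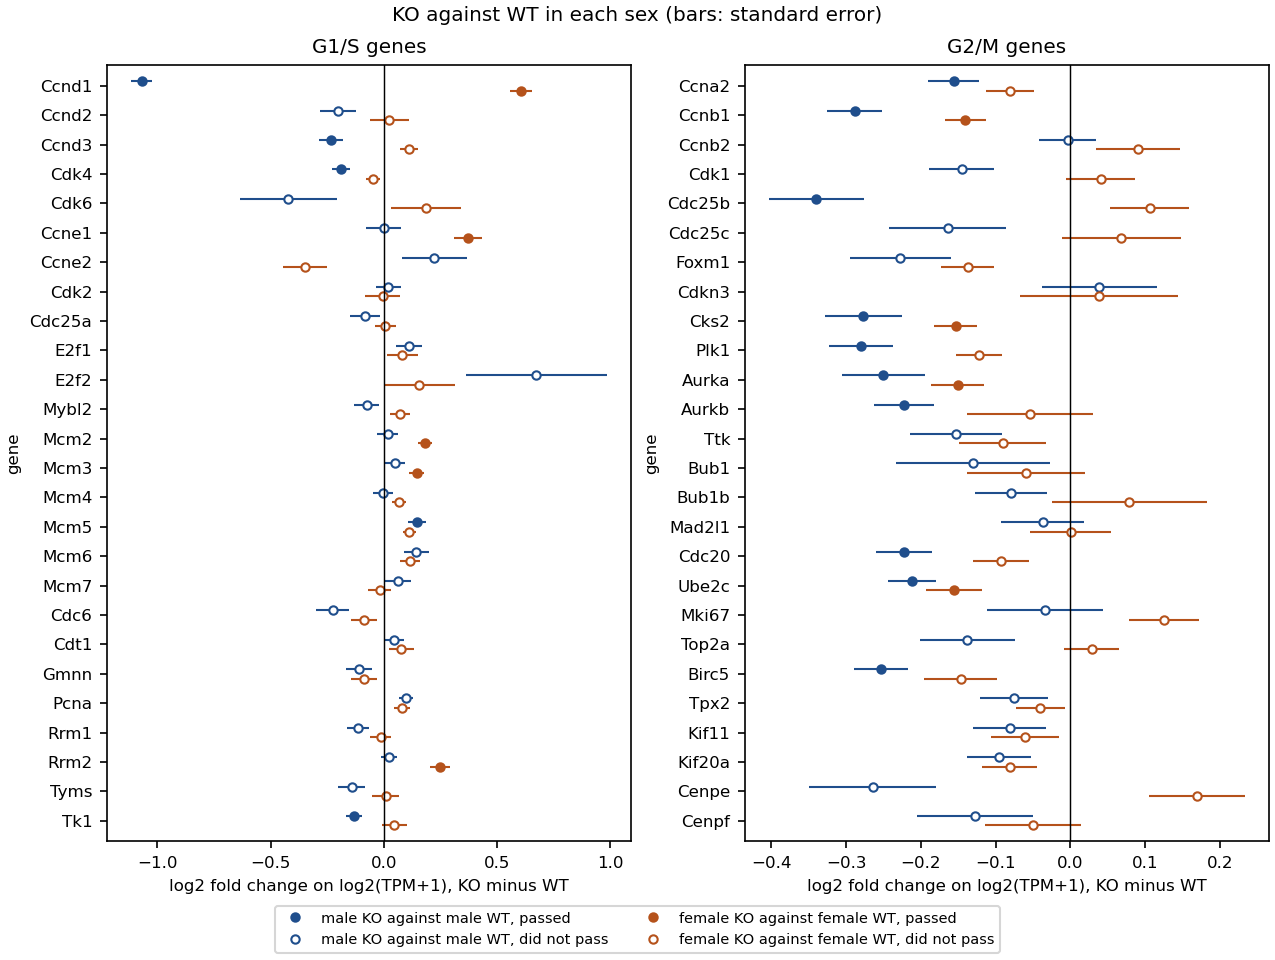
Points give the log2 fold change of each gene, KO minus WT on log2(TPM+1), in males (blue) and females (orange), bars are standard errors, and filled points passed at an adjusted p under 0.05. Ccnd1 lies far to the left in males (-1.07) and to the right in females (0.61), and 25 of the 26 G2/M genes lie left of 0 in males; the 2 panels have different horizontal scales.

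Ccnd1 (cyclin D1, ENSMUSG00000070348.5, chromosome 7 from 144929931 to 144939925 of GRCm38), which links growth signals to the cycle, changed most of the 52 genes and in opposite directions in the sexes. It read 63.3, 65.3 and 66.3 TPM in the male WT libraries, 30.8, 30.4 and 30.1 in the male KO, 57.6, 54.5 and 56.7 in the female WT and 91.0, 83.8 and 83.9 in the female KO. The 4 groups did not overlap, and they ran from male KO through female WT and male WT to female KO. In males Ccnd1 fell from 65.0 ± 1.51 to 30.4 ± 0.321 TPM (SD, n = 3), which is 53.2% lower, with a log2 fold change of -1.07 (standard error 0.048, adjusted p = 1.92e-05). In females it rose from 56.3 ± 1.59 to 86.2 ± 4.12 TPM (SD, n = 3), which is 53.3% higher, with a log2 fold change of 0.61 (standard error 0.048, adjusted p = 7.21e-04). Both calls held with any 1 library left out and under the 7 other processing settings. Sirt3 lies on the same chromosome, from 140863666 to 140882309, and the part of this position in the Ccnd1 changes was not tested.

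Ccnd2 (cyclin D2, ENSMUSG00000000184.12, chromosome 6 from 127125162 to 127152193) separated the sexes, and neither of its KO comparisons passed. It read 43.3, 41.6 and 42.5 TPM in the male WT libraries, 32.7, 39.2 and 38.9 in the male KO, 70.6, 69.2 and 60.2 in the female WT and 75.0, 65.3 and 63.2 in the female KO, so that each male library lay below each female one. Between KO and WT its log2 fold change was -0.20 (standard error 0.080, adjusted p = 0.122) in males, with the KO libraries below the WT libraries, and 0.024 (standard error 0.087, adjusted p = 0.892) in females, where the groups overlapped. The female value changed sign without female WT 3 or female KO 1 (-0.047 and -0.050).

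Ccnd3 (cyclin D3, ENSMUSG00000034165.16, chromosome 17 from 47505051 to 47599691), the most abundant D cyclin here, read 126, 133 and 119.9 TPM in the male WT libraries, 109, 103 and 109.9 in the male KO, 126, 119.7 and 129 in the female WT and 138, 133 and 135 in the female KO. It fell in males by 15.0%, with a log2 fold change of -0.23 (standard error 0.053, adjusted p = 0.0214), and had a log2 fold change of 0.11 (standard error 0.039, adjusted p = 0.120) in females, where the KO libraries lay above the WT libraries. The male call was lost without male WT 1 or 2 or male KO 2 or 3 (adjusted p up to 0.0598) and under 2 of the 7 other settings (adjusted p up to 0.0577). Summed over the 3 D cyclins, the level was 233.8 ± 5.90 TPM in male WT, 174.8 ± 3.56 in male KO, 248.0 ± 5.70 in female WT and 289.4 ± 12.3 in female KO (SD, n = 3 each). Ccnd1 made up 27.8% ± 1.02 of that sum in male WT, 17.4% ± 0.513 in male KO, 22.7% ± 0.312 in female WT and 29.8% ± 0.153 in female KO (SD, n = 3 each).

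**Figure D3:**
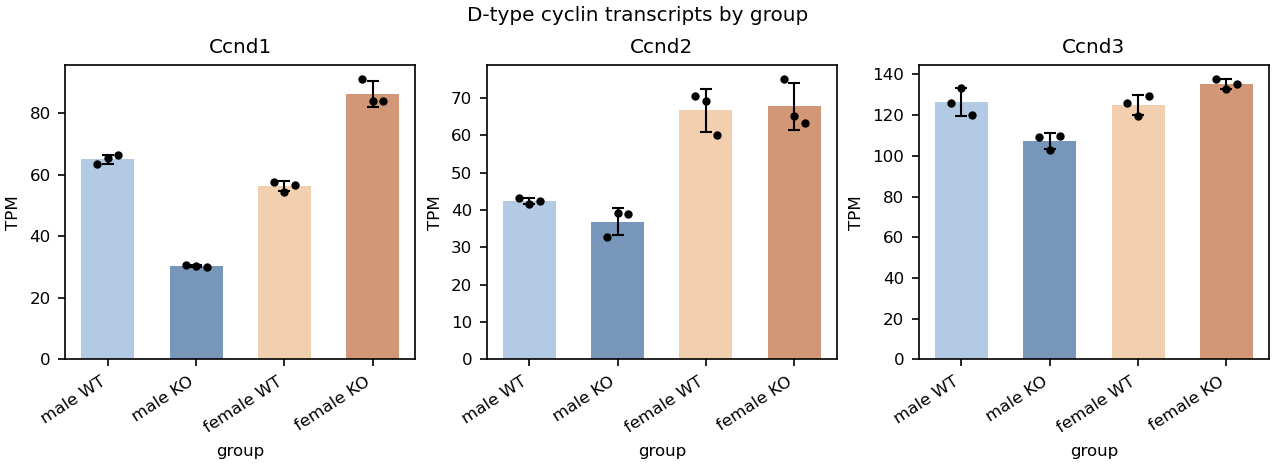
TPM of the 3 D cyclins in each group: bars are means, error bars SD and dots the 3 libraries, each axis from 0 with its own scale. Ccnd1 is at 30.1 to 30.8 TPM in male KO and 83.8 to 91.0 TPM in female KO, Ccnd2 is lower in male than in female libraries of both genotypes, and Ccnd3 is lowest in male KO.

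Of the kinase partners of the D cyclins, Cdk4 fell in males and Cdk6 did not pass. Cdk4 (chromosome 10 from 127063534 to 127067920) read 901, 882 and 826 TPM in the male WT libraries, 772, 742 and 771 in the male KO, 811, 832 and 815 in the female WT and 778, 776 and 828 in the female KO. Its male KO level was lower by 12.4%, with a log2 fold change of -0.19 (standard error 0.040, adjusted p = 0.0155), and the female log2 fold change was -0.046 (standard error 0.032, adjusted p = 0.403). The male call was lost without male WT 2 (adjusted p = 0.0539) and under 3 of the 7 other settings (adjusted p up to 0.0740). Cdk6 read 39.4, 23.3 and 22.5 TPM in the male WT libraries, 19.2, 23.7 and 18.3 in the male KO, 19.1, 23.2 and 21.9 in the female WT and 21.8, 21.3 and 31.2 in the female KO. A single male WT library, replicate 1, stood well above the rest, the groups overlapped in both sexes, and neither value passed (log2 fold change -0.42, adjusted p = 0.216 in males and log2 fold change 0.19, adjusted p = 0.488 in females).

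Cyclin E with Cdk2 starts replication, and Cdc25a removes the phosphates that hold Cdk2 back. None of these 4 genes passed between male KO and male WT. Ccne1 (cyclin E1) read 36.3, 31.8 and 34.8 TPM in the male WT libraries, 34.0, 36.8 and 32.0 in the male KO, 31.4, 31.2 and 33.2 in the female WT and 40.0, 44.8 and 40.3 in the female KO. It rose in females by 30.5%, with a log2 fold change of 0.37 (standard error 0.062, adjusted p = 0.0131), and the 3 female KO libraries were the highest of the 12. This call was lost without female WT 1 (adjusted p = 0.0520). Ccne2 (cyclin E2) read 26.1, 27.4 and 32.0 TPM in the male WT libraries, 31.9, 41.0 and 28.2 in the male KO, 33.3, 36.8 and 41.8 in the female WT and 28.5, 31.6 and 27.0 in the female KO. Neither comparison passed (log2 fold change 0.22, adjusted p = 0.318 in males and log2 fold change -0.35, adjusted p = 0.0693 in females). Cdc25a read 34.1, 37.1 and 36.7 TPM in the male WT libraries, 32.1, 36.0 and 33.8 in the male KO, 41.2, 43.8 and 44.5 in the female WT and 42.7, 43.8 and 43.5 in the female KO, with each male library below each female one. Cdk2 stood between 64.1 and 84.1 TPM, and neither Cdc25a nor Cdk2 passed between KO and WT in either sex.

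E2f1 and E2f2 are activating E2F factors, and Mybl2 (B-Myb) is an E2F target that helps to switch on the G2/M genes. None of the 3 passed in either sex. E2f2, the least abundant of the 52, read 1.14, 2.01 and 2.33 TPM in the male WT libraries, 1.91, 3.79 and 5.25 in the male KO, 1.23, 1.50 and 1.30 in the female WT and 1.77, 1.33 and 1.76 in the female KO (log2 fold change 0.67, adjusted p = 0.176 in males and log2 fold change 0.16, adjusted p = 0.573 in females). The largest values lay in male KO 2 and 3, while male KO 1 lay among the male WT values. E2f1 ran from 41.1 to 48.6 TPM and Mybl2 from 50.0 to 57.1 TPM over the 12 libraries.

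Cdc6 and Cdt1 license origins by loading the Mcm2 to Mcm7 helicase onto DNA, and geminin (Gmnn) binds Cdt1 and blocks this loading. In females 2 of these 9 genes rose (22.2%, against 5.63% of all genes tested called higher), and in males 1 did (11.1%, against 10.7%). Mcm2 read 138, 151 and 143 TPM in the male WT libraries, 142, 146 and 149 in the male KO, 145, 147 and 148 in the female WT and 168, 168 and 163 in the female KO. The 3 female KO values were the highest of the 12, and the log2 fold change was 0.18 (standard error 0.030, adjusted p = 0.0128) in females. Mcm3 read 164, 172 and 159.7 TPM in the male WT libraries, 168, 167 and 178 in the male KO, 163, 165 and 161 in the female WT and 182, 186 and 174 in the female KO. The gene rose with a log2 fold change of 0.15 (standard error 0.034, adjusted p = 0.0402) in females, where KO lay above WT. Mcm5 read 148, 156 and 156 TPM in the male WT libraries, 168, 175 and 167 in the male KO, 149, 149 and 149 in the female WT and 164, 157 and 162 in the female KO. Here KO lay above WT in both sexes, with a log2 fold change of 0.15 (standard error 0.041, adjusted p = 0.0441) in males and a log2 fold change of 0.11 (standard error 0.030, adjusted p = 0.0598) in females. Mcm6 had values of the same sign that did not pass (log2 fold change 0.14, adjusted p = 0.108 in males and log2 fold change 0.12, adjusted p = 0.139 in females), and Mcm4 and Mcm7 did not pass in either sex. Cdc6 did not pass either (log2 fold change -0.23, adjusted p = 0.0691 in males and log2 fold change -0.086, adjusted p = 0.385 in females). The Mcm2 call was lost with no mean-variance trend (adjusted p = 0.0581), and the Mcm3 call with any 1 library but female KO 3 left out (adjusted p up to 0.121) and under 2 of the 7 other settings (adjusted p up to 0.122). The male Mcm5 call was lost with any 1 library left out (adjusted p up to 0.116) and under 2 of the 7 other settings (adjusted p up to 0.120).

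Of the clamp and nucleotide genes, Rrm2, the regulated subunit of ribonucleotide reductase, which makes the building blocks of DNA, rose in females. It read 135, 132 and 134 TPM in the male WT libraries, 137, 135 and 136 in the male KO, 148, 138 and 138 in the female WT and 172, 161 and 169 in the female KO. The 3 female KO libraries stood above the other 9, with a log2 fold change of 0.25 (standard error 0.043, adjusted p = 0.0153), a rise of 18.8%. Tk1 (thymidine kinase) read 138, 136 and 135 TPM in the male WT libraries, 122, 125 and 127 in the male KO, 132, 124 and 131 in the female WT and 142, 125 and 133 in the female KO. The fall in males had a log2 fold change of -0.13 (standard error 0.037, adjusted p = 0.0458). The replication clamp Pcna did not pass (log2 fold change 0.10, adjusted p = 0.0644 in males and log2 fold change 0.080, adjusted p = 0.192 in females), and Rrm1 and Tyms did not pass in either sex. The female Rrm2 call was lost without female WT 2 or 3 or female KO 1 or 3 (adjusted p up to 0.0570). The male Tk1 call was lost with any 1 library left out (adjusted p up to 0.119) and under 4 of the 7 other settings (adjusted p up to 0.125).

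Entry into mitosis needs cyclin B with Cdk1, which Cdc25 phosphatases switch on. Of these 9 genes, with Foxm1, Cdkn3 and Cks2 counted among them, 4 fell in males (44.4%, against 10.9% of all genes tested called lower) and 2 in females (22.2%, against 5.84%), where 5 of the 9 had a positive value. Ccnb1 (cyclin B1, ENSMUSG00000041431.16, chromosome 13 from 100778650 to 100786570) read 178, 183 and 180.1 TPM in the male WT libraries, 148, 143 and 152 in the male KO, 185, 182 and 180.2 in the female WT and 166, 163 and 166 in the female KO. KO lay below WT in both sexes, by 18.2% in males (log2 fold change -0.29, standard error 0.037, adjusted p = 0.00218) and by 9.33% in females (log2 fold change -0.14, standard error 0.028, adjusted p = 0.0236). Cks2, which binds Cdk1, read 280.3, 252 and 262 TPM in the male WT libraries, 228, 209.9 and 217 in the male KO, 242, 248 and 253 in the female WT and 222, 224 and 221 in the female KO. Here too KO lay below WT in both sexes, by 17.6% in males (log2 fold change -0.28, standard error 0.051, adjusted p = 0.00992) and by 10.2% in females (log2 fold change -0.15, standard error 0.029, adjusted p = 0.0194). The male calls of Ccnb1 and Cks2 held with any 1 library left out and under the 7 other settings. The female Ccnb1 call was lost with any 1 library left out (adjusted p up to 0.0775) and with no mean-variance trend (adjusted p = 0.102), and the female Cks2 call with any 1 library but female WT 1 left out (adjusted p up to 0.0691) and with no mean-variance trend (adjusted p = 0.0918).

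Cdc25b, the Cdc25 phosphatase that starts mitotic entry, had the largest male change of the G2/M genes. It read 62.6, 66.8 and 67.3 TPM in the male WT libraries, 51.8, 55.0 and 48.1 in the male KO, 54.4, 51.7 and 57.6 in the female WT and 59.2, 56.9 and 60.2 in the female KO. The male KO level was lower by 21.2%, with a log2 fold change of -0.34 (standard error 0.064, adjusted p = 0.0103), a call that held with any 1 library left out and under the 7 other settings. In females the log2 fold change was 0.11 (standard error 0.053, adjusted p = 0.256). Ccna2 (cyclin A2) read 161, 159 and 161 TPM in the male WT libraries, 146, 144 and 141 in the male KO, 152, 147 and 149 in the female WT and 144, 138 and 141 in the female KO. The fall in males had a log2 fold change of -0.16 (standard error 0.034, adjusted p = 0.0191), a call that was lost without male WT 1 or 3 or male KO 3 (adjusted p up to 0.0691) and under 2 of the 7 other settings (adjusted p up to 0.0763). Ccnb2 (cyclin B2), the close relative of Ccnb1, read 95.9, 96.1 and 93.2 TPM in the male WT libraries, 95.5, 94.9 and 94.0 in the male KO, 94.5, 94.1 and 96.1 in the female WT and 109.9, 98.2 and 95.7 in the female KO, and male KO and WT overlapped. Foxm1, a transcription factor of mitotic genes, missed the threshold in both sexes (log2 fold change -0.23, adjusted p = 0.0531 in males and log2 fold change -0.14, adjusted p = 0.0556 in females) with KO below WT in each. Cdk1 did not pass (log2 fold change -0.15, adjusted p = 0.0546 in males and log2 fold change 0.041, adjusted p = 0.624 in females). Cdc25c and Cdkn3 did not pass in either sex.

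Of the 4 mitotic kinases 3 fell in males (75%, against 10.9% of all genes tested called lower) and 1 in females (25%, against 5.84%). Plk1, a master kinase of mitosis whose promoter stretch is printed above, read 136, 136 and 128 TPM in the male WT libraries, 112, 107 and 111 in the male KO, 127, 125 and 129 in the female WT and 118, 116 and 117 in the female KO. Its log2 fold change was -0.28 (standard error 0.043, adjusted p = 0.00446) in males and -0.12 (standard error 0.031, adjusted p = 0.0501) in females, just outside the threshold, and KO lay below WT in both sexes. Aurka, which builds the spindle poles, read 94.7, 107 and 104 TPM in the male WT libraries, 82.8, 85.8 and 87.2 in the male KO, 107, 105 and 106 in the female WT and 98.6, 93.3 and 94.6 in the female KO. It fell in males with a log2 fold change of -0.25 (standard error 0.056, adjusted p = 0.0195) and in females with a log2 fold change of -0.15 (standard error 0.035, adjusted p = 0.0404). Aurkb, which corrects faulty spindle attachments, read 97.7, 96.2 and 98.7 TPM in the male WT libraries, 82.0, 82.6 and 85.7 in the male KO, 95.1, 94.0 and 88.1 in the female WT and 90.2, 99.1 and 78.6 in the female KO. Its fall in males had a log2 fold change of -0.22 (standard error 0.040, adjusted p = 0.00895), while female KO and WT overlapped (log2 fold change -0.054, adjusted p = 0.731). Ttk did not pass in either sex. The Plk1 and Aurkb calls in males held with any 1 library left out and under the 7 other settings. The male Aurka call was lost without male WT 2 or 3 or male KO 1 (adjusted p up to 0.0718) and with no filter on low values (adjusted p = 0.0507), and the female one with any 1 library left out (adjusted p up to 0.116) and under 3 of the 7 other settings (adjusted p up to 0.105).

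The anaphase promoting complex ends mitosis by marking cyclin B for destruction, once the checkpoint proteins Bub1, Bub1b and Mad2l1 release its activator Cdc20. Cdc20 read 227, 243 and 233 TPM in the male WT libraries, 198, 201 and 202 in the male KO, 231, 219 and 239 in the female WT and 216, 214 and 215 in the female KO. It fell in males with a log2 fold change of -0.22 (standard error 0.037, adjusted p = 0.00676), and the female log2 fold change was -0.093 (standard error 0.038, adjusted p = 0.169), with KO below WT in both sexes. Ube2c read 419, 417 and 418 TPM in the male WT libraries, 365, 350.0 and 367 in the male KO, 452, 416 and 449 in the female WT and 395, 389 and 397 in the female KO. Ube2c fell in males with a log2 fold change of -0.21 (standard error 0.032, adjusted p = 0.00408) and in females with a log2 fold change of -0.16 (standard error 0.037, adjusted p = 0.0437). The male calls held with any 1 library left out and under the 7 other settings, while the female Ube2c call was lost with any 1 library but female WT 2 left out (adjusted p up to 0.130) and under 3 of the 7 other settings (adjusted p up to 0.134). Bub1, Bub1b and Mad2l1 did not pass in either sex.

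Of the 8 spindle, chromosome and kinetochore genes, Birc5 (survivin, the partner of Aurkb) alone was called, in males. That share of 12.5% was near the 10.9% of all genes tested called lower. It read 204, 203 and 210.1 TPM in the male WT libraries, 168, 176 and 174 in the male KO, 197, 195 and 183 in the female WT and 174, 164 and 182 in the female KO. Its log2 fold change was -0.25 (standard error 0.036, adjusted p = 0.00342) in males, a call that held with any 1 library left out and under the 7 other settings, and -0.15 (standard error 0.049, adjusted p = 0.106) in females, with KO below WT in both sexes. Cenpe, a kinetochore motor, read 37.4, 36.1 and 38.3 TPM in the male WT libraries, 28.7, 35.0 and 29.2 in the male KO, 34.2, 30.0 and 32.5 in the female WT and 37.3, 36.8 and 34.8 in the female KO. Neither comparison passed, with a log2 fold change of -0.26 (standard error 0.085, adjusted p = 0.0700) in males and a log2 fold change of 0.17 (standard error 0.064, adjusted p = 0.149) in females. The proliferation marker Mki67 read 59.3, 64.4 and 61.4 TPM in the male WT libraries, 56.8, 67.4 and 57.0 in the male KO, 54.9, 58.3 and 56.1 in the female WT and 59.0, 62.7 and 63.3 in the female KO. Male KO and WT overlapped, and in females KO lay above WT without passing the test. Top2a, Tpx2, Kif11, Kif20a and Cenpf did not pass in either sex.

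Of the 10 G2/M genes that fell in males, 4 were also called lower in females (40.0%), namely Ccnb1, Cks2, Aurka and Ube2c, and these were all 4 of the female calls. Over all genes tested, 289 were called lower in both, which is 21.2% of the male and 39.6% of the female calls. The male and female comparisons share no libraries. No G1/S gene was called in the same direction in both sexes. Within the G2/M genes with a promoter window, the 8 that fell in males held a CHR in 6 cases (75.0%) and a CCAAT box in 7 (87.5%), and the 12 that were not called held a CHR in 10 (83.3%) and a CCAAT box in 11 (91.7%), so these letters did not separate the genes that fell from those that did not.

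Averaged over the 26 genes of a phase, the level of a library shows the same division. For the G2/M genes the mean log2(TPM+1) was 6.59 ± 0.0090 in male WT, 6.43 ± 0.035 in male KO, 6.56 ± 0.023 in female WT and 6.52 ± 0.011 in female KO (SD, n = 3 each). The 3 male KO libraries were the lowest of the 12. For the G1/S genes it was 6.33 ± 0.0096, 6.28 ± 0.048, 6.36 ± 0.0048 and 6.44 ± 0.019 in the same order, with the 3 female KO libraries highest. The male G1/S means take in Ccnd1 (log2 fold change -1.07) and E2f2 (0.67), while the median over the 26 genes was -0.0015. Male KO 1 was the lowest library for the G1/S genes, 0.13 below the mean of the 12, and male KO 2 lay closest to WT in both classes (-0.034 and -0.055). The female difference between KO and WT in the G2/M level, -0.034, became -0.0052 under median-of-ratios scaling.

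**Figure D4:**
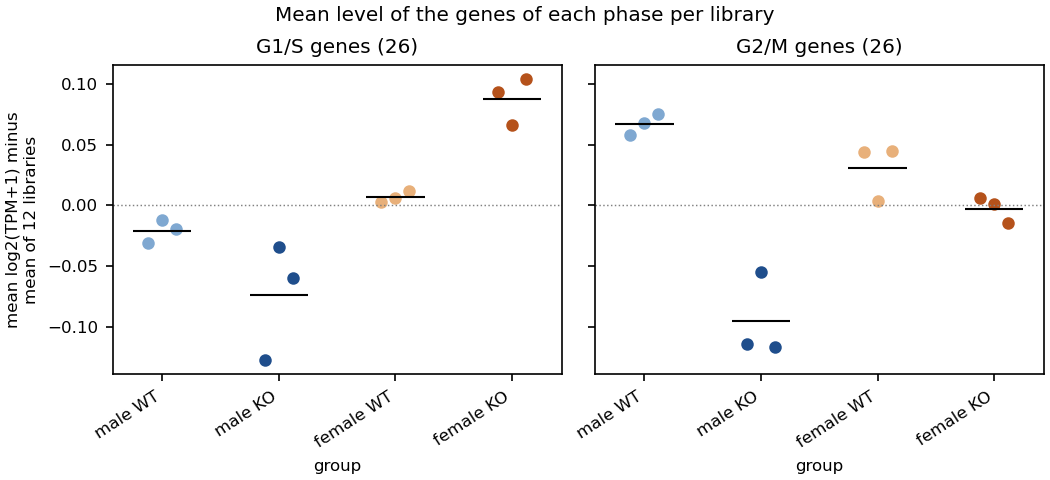
Mean log2(TPM+1) of the 26 genes of each phase in each library, minus the mean of the 12 libraries, with dots for libraries and a line for the group mean. The G2/M level lies between -0.12 and -0.055 in male KO and between 0.058 and 0.076 in male WT, and the G1/S level is highest in female KO (0.067 to 0.10).

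Whether the KO effect differed between the sexes was tested as an interaction over all 12 libraries, the male minus the female log2 fold change. Of the 52 genes 7 passed (13.5%), 4 of G1/S and 3 of G2/M, each more negative in males, against 13% of all genes tested and 6.33% in that direction. Ccnd1 differed most, by -1.68 (standard error 0.063, adjusted p = 3.60e-08). Ccnd3 differed by -0.34 (standard error 0.066, adjusted p = 0.00474), Cdc25b by -0.45 (standard error 0.083, adjusted p = 0.00405) and Rrm2 by -0.22 (standard error 0.052, adjusted p = 0.0150). These 4 held with any 1 of the 12 libraries left out and under the 6 other settings. Cenpe differed by -0.43 (standard error 0.11, adjusted p = 0.0216), Ccne1 by -0.37 (standard error 0.099, adjusted p = 0.0292) and Ccnb1 by -0.15 (standard error 0.043, adjusted p = 0.0411). The Cenpe call was lost without male WT 3 or male KO 1 or 3 or female WT 2 or female KO 1 (adjusted p up to 0.0546). The Ccne1 call was lost without male WT 1 or 3 or male KO 1 or 3 or female WT 1 or 2 or female KO 2 (adjusted p up to 0.0702). The Ccnb1 call was lost with any 1 library but male KO 3 left out (adjusted p up to 0.0953) and under 2 of the 6 other settings (adjusted p up to 0.118). For Plk1, Aurkb, Cdc20 and Birc5, which passed in males and not in females, the difference itself did not pass (adjusted p = 0.0600, 0.317, 0.143 and 0.313).

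The sexes were also compared within each genotype. Between male and female WT, 4 of the 52 genes passed (7.69%), against 12.8% of all genes tested, 6.26% higher and 6.56% lower in males. Ccnd2 was 36.3% lower in male WT (log2 fold change -0.64, standard error 0.068, adjusted p = 0.00155) and Cdc25a lower (log2 fold change -0.26, standard error 0.057, adjusted p = 0.0309), while Ccnd1 (log2 fold change 0.20, standard error 0.044, adjusted p = 0.0258) and Cdc25b (log2 fold change 0.26, standard error 0.056, adjusted p = 0.0268) were higher. The Ccnd2 call held with any 1 library left out and under the 7 other settings. The Cdc25a call was lost with any 1 library but female WT 1 left out (adjusted p up to 0.105) and under 2 of the 7 other settings (adjusted p up to 0.0533). The Ccnd1 call was lost with any 1 library but male WT 1 left out (adjusted p up to 0.0862) and with no mean-variance trend (adjusted p = 0.0549). The Cdc25b call was lost without male WT 2 or 3 or female WT 1 or 2 (adjusted p up to 0.0892) and under 2 of the 7 other settings (adjusted p up to 0.0636).

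Between male and female KO, 10 of the 52 passed (19.2%), each lower in males, against 16.6% of all genes tested and 8.39% in that direction. Ccnd1 was 64.7% lower (log2 fold change -1.47, standard error 0.052, adjusted p = 6.72e-06), Ccnd2 45.6% lower (log2 fold change -0.86, standard error 0.095, adjusted p = 0.00120) and Ccnd3 20.6% lower (log2 fold change -0.33, standard error 0.041, adjusted p = 0.00211). Cdc25a differed by -0.34 (standard error 0.059, adjusted p = 0.00828) and Rrm2 by -0.30 (standard error 0.038, adjusted p = 0.00222). These 5 held with any 1 library left out and under the 7 other settings. Mcm2 differed by -0.19 (standard error 0.036, adjusted p = 0.0124), Ccne1 by -0.27 (standard error 0.074, adjusted p = 0.0481), Ccnb1 by -0.16 (standard error 0.036, adjusted p = 0.0232), Aurka by -0.16 (standard error 0.043, adjusted p = 0.0449) and Ube2c by -0.13 (standard error 0.031, adjusted p = 0.0346). The Mcm2 call was lost with no mean-variance trend (adjusted p = 0.0564), and the Ccne1 call with any 1 library but male KO 2 left out (adjusted p up to 0.139) and under 2 of the 7 other settings (adjusted p up to 0.109). The Ccnb1 call was lost without male KO 1 or female KO 1, 2 or 3 (adjusted p up to 0.0770) and under 2 of the 7 other settings (adjusted p up to 0.0878). The Aurka call was lost with any 1 library left out (adjusted p up to 0.132) and under 3 of the 7 other settings (adjusted p up to 0.102), and the Ube2c call with any 1 library left out (adjusted p up to 0.107) and under 2 of the 7 other settings (adjusted p up to 0.154).

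Other genes of the pathway were counted from 3 further lists. Of 50 other mitotic genes 11 fell and none rose in males (22%, median log2 fold change -0.12). Of all genes tested 21.6% were called in males in either direction, and 10.9% were called lower. In females 2 of the 50 rose and 2 fell (8%, median -0.042), against 11.5% of all genes tested. Ect2, which places the cleavage furrow, read 85.4, 81.3 and 87.7 TPM in the male WT libraries, 59.0, 48.1 and 56.8 in the male KO, 70.2, 73.8 and 68.8 in the female WT and 67.4, 68.4 and 66.7 in the female KO. This gene fell in males with a log2 fold change of -0.63 (standard error 0.082, adjusted p = 0.00227). Nek2, which parts the centrosomes, read 50.8, 55.5 and 52.1 TPM in the male WT libraries, 40.2, 39.6 and 40.6 in the male KO, 53.0, 53.7 and 51.5 in the female WT and 47.3, 44.9 and 45.6 in the female KO. A fall was called in males (log2 fold change -0.39, standard error 0.053, adjusted p = 0.00289) and in females (log2 fold change -0.20, standard error 0.044, adjusted p = 0.0349). In males Espl1, the separase that splits sister chromatids (log2 fold change -0.47, adjusted p = 0.0459), and Anln, a scaffold of the furrow (log2 fold change -0.29, adjusted p = 0.00502), fell too. In females the spindle proteins Psrc1 (log2 fold change 0.42, adjusted p = 0.00803) and Ckap2 (log2 fold change 0.21, adjusted p = 0.0290) rose and Cks1b, the sister of Cks2, fell (log2 fold change -0.17, adjusted p = 0.0122). Male KO also lay below male WT for Cks1b (359.9 to 378 TPM in WT and 328.5 to 335 in KO). For Ckap2 male KO lay below male WT, the reverse of the female change. For Psrc1 male KO and WT overlapped (23.8 to 31.5 TPM in WT and 31.1 to 33.4 in KO). The male Espl1 call was lost with any 1 library but male KO 2 left out (adjusted p up to 0.133) and under 2 of the 7 other settings (adjusted p up to 0.156), and the female calls of Ckap2 and Nek2 with any 1 library left out (adjusted p up to 0.0887 and 0.102). The female Cks1b call was lost with no mean-variance trend (adjusted p = 0.0744).

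Of 51 other replication genes 2 rose and 3 fell in males (9.8%, median -0.0051), below the 21.6% of all genes tested. In females 4 rose and none fell (7.84%, median 0.028). Of all genes tested 11.5% were called in females in either direction, and 5.63% were called higher. Chaf1b, a subunit of the factor that lays histones on new DNA, rose in males (log2 fold change 0.28, adjusted p = 0.0136), where Exo1, a DNA repair nuclease (log2 fold change -0.50, adjusted p = 0.0461), and Hells, a chromatin remodeller (log2 fold change -0.37, adjusted p = 0.00493), fell. Pola1 (DNA polymerase alpha, log2 fold change 0.31, adjusted p = 0.0188), Rfc2 (clamp loader, log2 fold change 0.19, adjusted p = 0.0258), Tipin (fork protection, log2 fold change 0.16, adjusted p = 0.0271) and Uhrf1 (copying of DNA methylation, log2 fold change 0.14, adjusted p = 0.0447) rose in females. In males too KO lay above WT for Uhrf1 (108 to 119 TPM in WT and 130 to 136 in KO). The same held for Pola1 (21.1 to 21.6 TPM in male WT and 23.3 to 24.8 in male KO). Male KO and WT overlapped for Rfc2 and Tipin. Of the 7 calls with a p given here, the Hells call alone held with any 1 library left out. Chaf1b was lost without male WT 3 (adjusted p = 0.0501), and Pola1 without female WT 1 or 3 or female KO 2 or 3 (adjusted p up to 0.0664). Exo1 was lost with any 1 library but male KO 2 left out (adjusted p up to 0.126) and under 2 of the 7 other settings (adjusted p up to 0.149). Rfc2 and Uhrf1 were lost with any 1 library left out (adjusted p up to 0.0785 and 0.128). Tipin was lost with any 1 library but female KO 1 left out (adjusted p up to 0.0896). With no mean-variance trend the Rfc2 call was lost (adjusted p = 0.0714). Tipin and Uhrf1 were each lost under 2 of the 7 other settings (adjusted p up to 0.151 and 0.124).

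Of 25 regulators upstream of the cycle (the Rb family, further E2F and MuvB factors and inhibitors of the cyclin kinases, with Myc and the Cdk1 kinases Wee1 and Pkmyt1) 1 rose and 4 fell in males (20%, median -0.076), and 1 rose and 1 fell in females (8%, median -0.016), against 21.6% and 11.5% of all genes tested. Cdkn1c (p57), an inhibitor of cyclin kinases, read 61.3, 73.1 and 80.7 TPM in the male WT libraries, 34.1, 28.9 and 32.1 in the male KO, 84.3, 92.2 and 81.5 in the female WT and 102, 98.0 and 90.3 in the female KO. It fell in males with a log2 fold change of -1.15 (standard error 0.11, adjusted p = 5.42e-04), and the female log2 fold change was 0.17 (standard error 0.065, adjusted p = 0.149), where the groups overlapped. E2f4, a repressive E2F factor, read 126, 121 and 129 TPM in the male WT libraries, 97.2, 97.2 and 91.3 in the male KO, 114, 111 and 116 in the female WT and 115, 117 and 112 in the female KO. Its male KO libraries lay below the other 9, and the gene fell in males with a log2 fold change of -0.39 (standard error 0.047, adjusted p = 0.00151). Cdkn2a, the locus of p16 and p19, fell in males (log2 fold change -0.24, adjusted p = 0.00927), as did Lin52, a MuvB subunit (log2 fold change -0.56, adjusted p = 0.0312). Female KO also lay below female WT for Cdkn2a (733 to 816 TPM against 865 to 885), without passing, and overlapped with it for Lin52. Cdkn1a (p21), the inhibitor that p53 induces, read 87.4, 87.0 and 87.8 TPM in the male WT libraries, 100.2, 102 and 106 in the male KO, 132, 123 and 125 in the female WT and 169, 149.7 and 164 in the female KO. The gene rose in both sexes (log2 fold change 0.23, adjusted p = 0.00850 in males and log2 fold change 0.34, adjusted p = 0.0117 in females). Myc, a growth regulator, read 169.9, 171 and 171 TPM in the male WT libraries, 162, 156 and 156 in the male KO, 192, 195 and 197 in the female WT and 156, 158 and 154 in the female KO. The fall in females had a log2 fold change of -0.32 (standard error 0.028, adjusted p = 0.00109). The Lin52 call was lost without male WT 1 or 3 or male KO 1 or 3 (adjusted p up to 0.103) and with no filter on low values (adjusted p = 0.0928).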

How the data were processed

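Per the labels and the study's methods, polyadenylated RNA of 12 wells of MEFs was sequenced, and the authors quantified reads with Salmon against the mouse transcriptome (GRCm38) and deposited 1 table of TPM per gene. The labels name Salmon 1.10.1. TPM keep no read counts, so depth is unknown, no counting interval can be given, and the number of libraries limits the precision. Levels are relative: a rise of abundant genes lowers the others.

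Gene symbols came from GENCODE (34582 of 34866 identifiers). The 12504 genes that averaged 1 TPM or more were kept, log2(TPM+1) was taken, and limma 3.58.1 in R 4.3.3 with a mean-variance trend was fitted to the 6 libraries of each comparison (12 for the interaction), two-sided, with Benjamini-Hochberg adjustment over all genes tested and a threshold of 0.05. The study's own test was made for counts and was not used here. No value column was left out. The steps were tested on simulated data. A first target for the share of changed genes recovered was not met, and other checks replaced it. Genes that change but vary much between libraries can therefore be missed.

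The cycle genes and the further lists were chosen with earlier results of these data known. Every library's values are given for called genes among the 10 largest changes of a comparison and for the D cyclins and their kinases. From the further lists, the 4 called genes with the largest change in each sex are named, except 1 that is not reported here. Values of other uncalled genes, chosen after they were seen, are given where they lie near the threshold or beside a relative.

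Libraries held 12256 to 12637 genes at 1 TPM or more, their median-of-ratios factors ran from 0.966 to 1.02, their 10 most abundant genes took 5.82% to 7.33% of the TPM, and at most 0.536% of genes tested had the same TPM in any pair of libraries. These 7 other settings were tried: a pseudocount of 0.1, quantile normalization, no filter, a minimum mean of 5 TPM, scaling by median-of-ratios, all 12 libraries in 1 fit and no mean-variance trend. A replicate block and leaving out each library were tried as well. Promoter sequences are from RefSeq (GRCm38.p6).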

Additional observations from a re-analysis of the deposited data

Results flagged for a closer look

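The KO effect differed between males and females for 7 of the cycle genes and for 8 of the further genes named above, by limma on the interaction over all 12 libraries. The further genes were named because they were called in these same libraries, so that their number is no measure of their lists. Over the whole lists 4 of 51 replication genes (7.84%), 4 of 50 mitotic genes (8%) and 4 of 25 upstream regulators (16%) passed. Of all genes tested 13% did. Each value below is the male minus the female log2 fold change of KO against WT, with a p adjusted over all genes tested.

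Of the cycle genes, Ccnd1 differed by -1.68 (adjusted p = 3.60e-08), with the male and the female change in opposite directions and both called. Ccnd3 differed by -0.34 (adjusted p = 0.00474) and Cdc25b by -0.45 (adjusted p = 0.00405), both called lower in males and not called in females. Ccne1 differed by -0.37 (adjusted p = 0.0292) and Rrm2 by -0.22 (adjusted p = 0.0150), both called higher in females and not called in males. Ccnb1 differed by -0.15 (adjusted p = 0.0411), with a call in each sex and the larger fall in males. Cenpe differed by -0.43 (adjusted p = 0.0216) without a call in either sex.

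Of the mitotic genes outside the set, Ect2 differed by -0.56 (adjusted p = 0.00223) and Anln by -0.21 (adjusted p = 0.0296), both called lower in males. Ckap2 differed by -0.34 (adjusted p = 0.0136), called higher in females. Of the replication genes, Hells differed by -0.47 (adjusted p = 0.00280), with a fall in males, and Chaf1b by 0.25 (adjusted p = 0.0292), with a rise in males. Of the upstream regulators, Cdkn1c differed by -1.32 (adjusted p = 6.02e-05) and E2f4 by -0.40 (adjusted p = 5.37e-04), both called lower in males, and Myc differed by 0.21 (adjusted p = 0.00523), with the larger fall in females.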

How the results depend on the processing

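Of 102 single-gene results recomputed with limma under the other settings (the replicate block among them), 690 recomputed values kept their direction and their side of the threshold, 91 lost and 23 gained a call, and none changed sign. With 1 library left out in turn, 500 kept both, 166 lost and 2 gained a call, and 4 changed sign: Ccnd2 in females ran from -0.050 (without female KO 1; -0.047 without female WT 3) to 0.072, and Ccnd3 between male and female WT from -0.025 (without male WT 2; -0.017 without female WT 2) to 0.051. The 102 results cover called or named genes and not every gene of the set in each comparison. Outside them signs did change under another setting, as for Ccnb2 in males. Of the G1/S genes in males 12 were positive and 14 negative, and 14 and 12 under median-of-ratios scaling.

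The G1/S genes called in males numbered 3 with no filter on low values and 1 with no mean-variance trend, against 5. In females they numbered 3 with no trend, against 5, and the G2/M genes 2 under median-of-ratios scaling and 0 with no trend, against 4. Between male and female WT, no trend left 1 of 3 G1/S genes and 0 of 1 G2/M gene, with 2 higher at an unadjusted p under 0.05, and 1 fit of all 12 libraries called 2 G2/M genes. Between male and female KO the G2/M count was 0 under median-of-ratios scaling and 0 with no trend, against 3, with 9 and 6 lower at an unadjusted p under 0.05, and 6 in 1 fit of all 12 libraries. Counts over all genes tested moved as well. With no trend they were 2316 in males, 1141 in females, 1375 between WT sexes and 1721 between KO sexes. The main counts were 2707, 1434, 1603 and 2070. In 1 fit of all 12 libraries they were 1968 between WT sexes and 2622 between KO sexes. Median-of-ratios scaling gave 1418 in females and 2084 between KO sexes. No filter gave 2335 of 22401 in males. With 1 library left out the G1/S and G2/M counts ran from 1 to 3 and 8 to 12 in males, 3 to 4 and 0 to 1 in females, 3 to 4 and 1 to 4 for the difference between the sexes, 1 to 2 and 0 to 1 between WT sexes, and 6 to 7 and 0 to 2 between KO sexes. The female difference in level, 0.081 for G1/S and -0.034 for G2/M, became 0.11 and -0.0052 under median-of-ratios scaling, and the former 0.096 under quantile normalization. The cause of these shifts was not tested. The interaction in 1 fit of all 12 libraries was not run apart, since it already used them.

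Libraries share replicate numbers across groups, but the numbers did not pair them: deviations from the group means of same-numbered libraries correlated from -0.057 to 0.078 over all genes tested. With the replicate block, limma called 2 G1/S genes in males and 2 in females, 0 G2/M genes in females (7 lower and 1 higher at an unadjusted p under 0.05), 0 between WT sexes (5 higher) and 0 between KO sexes (8 lower), and 670 of all genes tested in females, against 1434. Of all genes tested the block left 2366 in males, 1114 between WT sexes and 1397 between KO sexes, against 2707, 1603 and 2070.

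Depth is unknown from TPM. With 1 library left out, its group has 2 libraries, and the fit pools their spread with the other group.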
